A study of Homo sapiens with 6 samples.

Results

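The genes described here are 10 genes of the hypoxia response: HIF1A, which encodes the oxygen-regulated subunit of hypoxia-inducible factor 1 (HIF-1), its prolyl hydroxylases EGLN1 and EGLN3, and the HIF-1 targets NDRG1, DDIT4, VEGFA, ADM, BNIP3, KDM3A and P4HA1. They were taken by name, as HIF-1 targets that are not enzymes of glycolysis, with HIF1A and EGLN1 added, and all 10 of them were among the 18372 genes measured. The choice was made with earlier results of these data known, so counts over the 10 genes are a description and not a test of the set. The samples were A375 cells, a long-established line of human melanoma, on 6 arrays in 2 groups. In the first group, 3 arrays, the cells had been transfected with siFAH, an siRNA against FAH. In the second group, 3 arrays, they had received a negative control siRNA. Both groups were collected at 72 h, and each array (Affymetrix Human Gene 1.0 ST) read labeled cDNA of 1 sample. The labels do not say which siFAH sequence was used. The study's methods call the replicates biological without saying how they were kept apart, so p values measure the spread between these samples. All levels below are log2 signals per probe set, as the authors deposited them, and all changes are differences of log2 signal, siFAH minus control siRNA. In a bulk sample, fewer cells with a transcript and less of it per cell cannot be told apart.

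HIF-1 is a pair of proteins, HIF-1α and ARNT, that binds DNA at hypoxia response elements and raises transcription of genes for oxygen supply, iron handling and energy metabolism. In oxygenated cells the EGLN enzymes hydroxylate HIF-1α on prolines. The VHL protein then binds it within an E3 ubiquitin ligase (ELOB, ELOC, CUL2, RBX1), and the proteasome degrades it. The hydroxylases need oxygen, iron and 2-oxoglutarate, and fumarate, a product of the FAH reaction, can inhibit them. HIF-1 is thus controlled mainly at the protein level, which arrays do not read, and the arrays were used here to ask how the mRNAs of its regulators and targets differed after FAH silencing.

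FAH itself read 4.92, 4.60 and 4.92 in the siFAH arrays, against 5.48, 5.59 and 5.68 in the control arrays. All siFAH arrays lay below all control arrays, and the change was -0.77 (limma, adjusted p = 0.00213). Arrays of 1 group correlated at 0.995 to 0.997, and array medians ran from 5.003 to 5.038 in siFAH arrays and from 4.922 to 4.996 in control arrays. Of 22 markers of cell types, those of keratinocytes, endothelium, leukocytes and fibroblasts (11 genes) read 2.43 to 5.75 in siFAH arrays and 2.19 to 5.59 in control arrays, and 0 of these 11 were called. Their summed log2 level was 45.2 to 45.5 in siFAH arrays and 44.1 to 44.8 in control arrays. SOX10, a factor of the melanocyte lineage, read 8.30 to 8.41 in siFAH arrays and 8.50 to 8.59 in control arrays (adjusted p = 0.0957). The pigment genes MLANA, PMEL, TYR and TYRP1 stayed between 2.84 and 3.94 in siFAH arrays and between 2.71 and 3.99 in control arrays, below every array median. CSPG4, a proteoglycan of melanoma cells, and the receptor kinase AXL were the 2 markers called, both lower (-0.67 and -0.55). The other lineage and melanoma markers were not called and had both signs, with -0.20 for NGFR, -0.03 for MITF, 0.07 for S100B and 0.33 for S100A1 (adjusted p = 0.205). The 7 lineage and melanoma markers summed to 49.6 to 50.1 in siFAH arrays and 50.7 to 51.3 in control arrays, and the part of these markers in the results below was not tested.

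HIF1A, NDRG1, DDIT4 and VEGFA fell after FAH silencing, by 0.28 to 0.41 on the log2 scale (1.21-fold to 1.33-fold). EGLN1 and BNIP3 stood at nearly the same level in both groups, and KDM3A, P4HA1, ADM and EGLN3 had changes that did not pass the test. Calls were made with limma at an adjusted p under 0.05 over all 18372 genes. By that rule 4 of the 10 genes were lower and 0 were higher, where 6.38% of all genes tested were called lower and 3.48% higher. Among the 10885 genes with a mean log2 signal of at least 5, which 9 of the 10 genes have, 1091 were called lower. The median change of the 10 genes was -0.20, against 0.005 over all genes and -0.039 over those brighter genes. The siFAH arrays lay wholly below the control arrays in 5 of the 10 genes and wholly above them in 1 (18.6% and 13.4% of all genes). At the limits in the study's methods, at least 1.2-fold with an unadjusted p under 0.05 (here from limma), the same 4 genes were lower, where 7.83% of all genes were. With 3 arrays against 3, an exact permutation test of a single gene cannot give a two-sided p under 0.1.

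**Figure D1:**
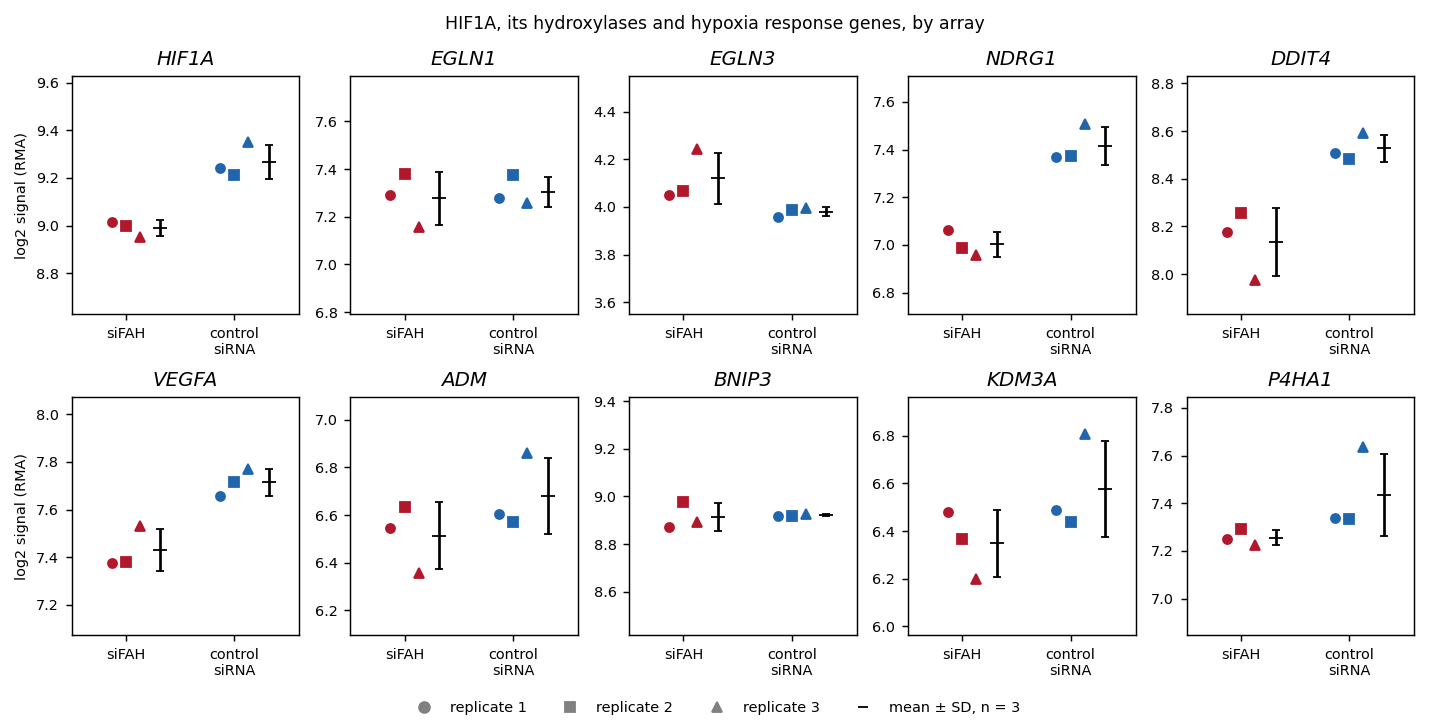
Log2 signal (vertical axis, 1 unit tall in every panel) of each of the 10 genes in the 3 siFAH arrays (red) and the 3 control siRNA arrays (blue), with the mean ± SD of each group in black. The groups are apart in HIF1A, NDRG1, DDIT4, VEGFA and P4HA1 (siFAH lower) and in EGLN3 (siFAH higher), and control replicate 3 is the highest control array in 9 of the 10 genes.

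Among the regulators, HIF1A read 9.02, 9.00 and 8.95 in the siFAH arrays, against 9.24, 9.21 and 9.35 in the control arrays. The groups did not overlap, and the gap between them was wider than the spread within either. Its mean was 8.99 ± 0.03 in siFAH arrays and 9.27 ± 0.07 in control arrays (SD, n = 3 each), a change of -0.28 (standard error 0.07, 95% interval -0.43 to -0.13, limma adjusted p = 0.0312). The call was close to the threshold. It was lost without siFAH replicate 1 (adjusted p = 0.0549), siFAH replicate 2 (0.0878), siFAH replicate 3 (0.11), control replicate 2 (0.0678) or control replicate 3 (0.0884), and after cyclic loess (0.071). Over 14 alternatives the adjusted p ran from 0.0107 to 0.11 and the change stayed negative, from -0.33 to -0.20.

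EGLN1 (PHD2), the main prolyl hydroxylase of HIF-1α in normal oxygen, read 7.29, 7.38 and 7.16 in the siFAH arrays and 7.28, 7.38 and 7.26 in the control arrays. The groups overlapped fully. Its change was -0.03 with a 95% interval of -0.20 to 0.14 (adjusted p = 0.855), and its sign turned after quantile normalization or cyclic loess. EGLN3 (PHD3), a hydroxylase that is itself a HIF-1 target, read 4.051, 4.065 and 4.243 in the siFAH arrays, against 3.958, 3.987 and 3.995 in the control arrays. Every siFAH array was above every control array, by a small margin for 2 of the 3, and all 6 values were under the array medians. The change of 0.14 (95% interval -0.02 to 0.30) had an adjusted p of 0.257.

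NDRG1 and DDIT4 changed most of the targets. NDRG1, an intracellular protein used as a marker of hypoxia, read 7.06, 6.99 and 6.96 in the siFAH arrays, against 7.37, 7.37 and 7.51 in the control arrays. The lowest control array stood well above the highest siFAH array. Its change was -0.41 (standard error 0.07, 95% interval -0.57 to -0.26, adjusted p = 0.00713), and it was the 1 gene of the 10 that was called under all 14 alternatives (adjusted p from 0.00214 to 0.0346). DDIT4 (REDD1), which restrains mTORC1 through the TSC complex, read 8.18, 8.26 and 7.98 in the siFAH arrays, against 8.51, 8.48 and 8.59 in the control arrays. The siFAH arrays were lower throughout, and siFAH replicate 3 was the lowest of them. Its change was -0.39 (standard error 0.08, 95% interval -0.58 to -0.21, adjusted p = 0.0176). The call was lost without siFAH replicate 3 (0.0632), control replicate 2 (0.0511) or control replicate 3 (0.0662), within a range of 0.0061 to 0.0662 over its alternatives.

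VEGFA, the ligand that drives the growth of blood vessels, read 7.38, 7.38 and 7.53 in the siFAH arrays, against 7.66, 7.72 and 7.77 in the control arrays. Again the groups were apart, with siFAH replicate 3 the nearest to the controls. Its change was -0.29 (standard error 0.07, 95% interval -0.45 to -0.13, adjusted p = 0.0353). The adjusted p was over the threshold after quantile normalization (0.0915) or cyclic loess (0.119), and without siFAH replicate 1 (0.0894), siFAH replicate 2 (0.115), control replicate 2 (0.0989) or control replicate 3 (0.1), in a range of 0.0107 to 0.119. ADM, the vasodilator peptide adrenomedullin, read 6.55, 6.63 and 6.36 in the siFAH arrays and 6.61, 6.57 and 6.86 in the control arrays. Its groups overlapped, and the change of -0.17 (95% interval -0.38 to 0.05) had an adjusted p of 0.314.

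BNIP3, a mitochondrial protein of mitophagy, read 8.87, 8.98 and 8.89 in the siFAH arrays and 8.92, 8.92 and 8.93 in the control arrays. The siFAH arrays lay on both sides of the control values, and the change was -0.01 with a 95% interval of -0.15 to 0.14 (adjusted p = 0.960, positive after quantile normalization, cyclic loess or array weights). The reference annotation holds 46 pseudogenes named for BNIP3, and the part of any of them in this signal was not tested. KDM3A, a histone H3 lysine demethylase, read 6.48, 6.37 and 6.20 in the siFAH arrays and 6.49, 6.44 and 6.81 in the control arrays. P4HA1, the catalytic subunit of the collagen prolyl 4-hydroxylase, read 7.25, 7.29 and 7.23 in the siFAH arrays, against 7.34, 7.34 and 7.63 in the control arrays. In both genes control replicate 3 stood above the other controls by more than the control replicates 1 and 2 differed. Without it the change of KDM3A was -0.11 in place of -0.23, and that of P4HA1 was -0.08 in place of -0.18. Neither was called with it (adjusted p = 0.204 and 0.223) or without it (0.532 and 0.546), and over all alternatives the adjusted p ran from 0.131 to 0.532 for KDM3A and from 0.143 to 0.546 for P4HA1.

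The replicates did not spread evenly over most of the 10 genes. Control replicate 3 was the highest control array in 9 of the 10 genes, against 40.1% of all genes, and siFAH replicate 3 was the lowest siFAH array in 7 of the 10, against 35.4% of all genes. EGLN1 had its lowest control value in replicate 3, and EGLN3 and VEGFA had their highest siFAH value there. Averaged over the 10 genes, the arrays deviated from each gene's mean by -0.079, -0.057 and -0.14 in siFAH replicates 1, 2 and 3 and by 0.046, 0.050 and 0.18 in control replicates 1, 2 and 3. By this average every siFAH array was below every control array, and replicate 3 lay farthest out in both groups. Their median change of -0.20 was -0.098 without control replicate 3, -0.16 without siFAH replicate 3 and -0.12 with array weights. Without control replicate 3, 1 of the 10 genes (NDRG1) was called, and 1 (NDRG1) without control replicate 2. There were 2 without siFAH replicate 1 (NDRG1 and DDIT4), 2 without siFAH replicate 2 (the same genes) and 2 without siFAH replicate 3 (NDRG1 and VEGFA), while all 4 were called without control replicate 1. Over all genes the 5 fits that lost members also called fewer. There were 438 lower genes without control replicate 3, 472 without control replicate 2, 948, 440 and 390 without siFAH replicates 1, 2 and 3, and 1192 without control replicate 1, where the 6 arrays together gave 1172. What sets replicate 3 apart was not tested.

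**Figure D2:**
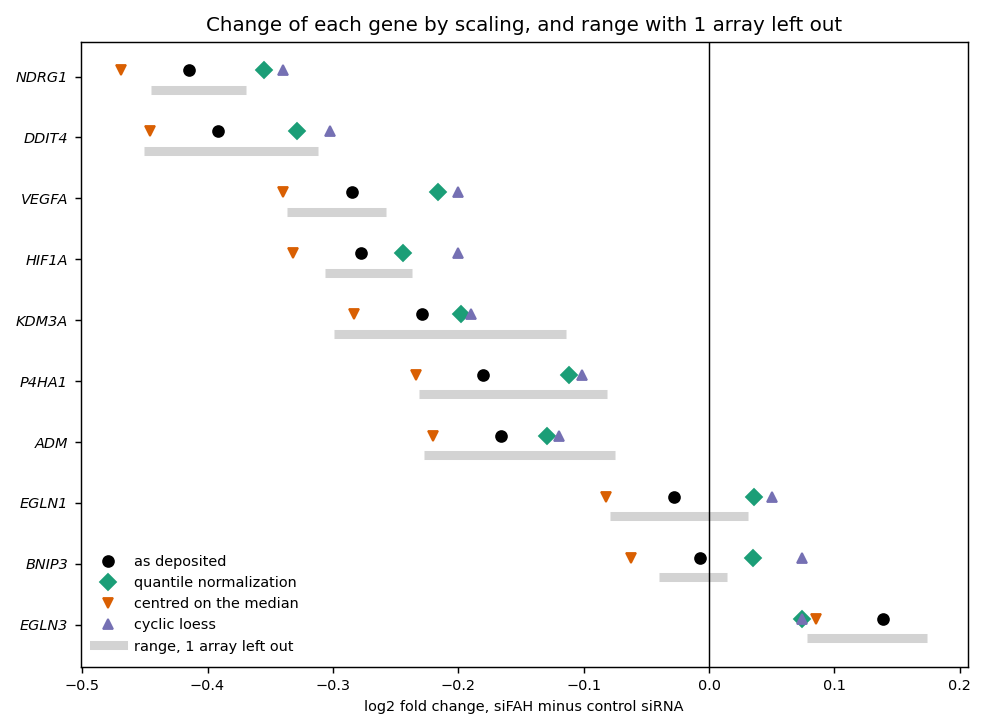
Horizontal position gives the change of each of the 10 genes (difference of mean log2 signal, siFAH over control siRNA) in the data as deposited and under 3 other scalings, with the range over the 6 fits that leave out 1 array as a gray bar. NDRG1, DDIT4, VEGFA, HIF1A, KDM3A, P4HA1 and ADM stay below 0 under all of these, EGLN3 stays above 0, and EGLN1 and BNIP3 cross it.

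The start regions of these genes were then searched for the core of the hypoxia response element, to show where it lies in the genes that fell and in those that did not. The motif was ACGTG or GCGTG on either strand, in windows of 300 bases, 250 before the annotated start and 50 from it on (RefSeq, GRCh38.p14). Some of its matches are also part of the E-box CACGTG, which other factors bind. A window was at hand for 8 of the 10 genes, the exceptions being NDRG1 and VEGFA. Of these 8 genes, 7 had a match in their first window (all but EGLN3), where 48.4% of all 35116 windows, those of further starts included, had one. DDIT4, which fell, had 4 separate places, at -219, -125, -53 and 26 counted from the start, and BNIP3, which was not called, had 5 places between -143 and -104. Windows with 3 or more places made up 7.54% of all, and windows with 5 or more made up 0.994%. HIF1A had 1 place, at -204 of its first window, and none in the window of its second start. A match is a string of letters and not a measured binding site. The 3 windows below are given from 5′ to 3′ in the direction of the gene, with the matches in capitals, and show the called gene with the most places, the uncalled gene with the most places and HIF1A itself.
DDIT4 (chr10:72273674-72273973, plus strand): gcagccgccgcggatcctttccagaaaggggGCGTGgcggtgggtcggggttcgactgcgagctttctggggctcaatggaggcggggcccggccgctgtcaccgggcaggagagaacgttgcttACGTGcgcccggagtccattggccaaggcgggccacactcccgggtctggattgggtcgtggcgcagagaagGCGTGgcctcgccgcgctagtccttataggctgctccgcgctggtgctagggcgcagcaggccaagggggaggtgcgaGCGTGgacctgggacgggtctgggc
BNIP3 (chr10:131981874-131982173, minus strand): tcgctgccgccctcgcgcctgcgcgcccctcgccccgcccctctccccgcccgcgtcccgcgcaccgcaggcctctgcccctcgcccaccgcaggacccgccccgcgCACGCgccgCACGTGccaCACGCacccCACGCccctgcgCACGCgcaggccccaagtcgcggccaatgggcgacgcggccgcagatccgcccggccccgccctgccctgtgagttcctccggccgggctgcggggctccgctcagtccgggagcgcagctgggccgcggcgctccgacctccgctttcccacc
HIF1A (chr14:61695263-61695562, plus strand): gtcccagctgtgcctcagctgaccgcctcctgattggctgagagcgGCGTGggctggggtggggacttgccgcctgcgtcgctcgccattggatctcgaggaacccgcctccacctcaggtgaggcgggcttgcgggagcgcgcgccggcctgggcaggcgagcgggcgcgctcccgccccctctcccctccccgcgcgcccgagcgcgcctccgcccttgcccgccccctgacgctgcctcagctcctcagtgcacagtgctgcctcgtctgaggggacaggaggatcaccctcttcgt

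The map of these places shows that the 5 of BNIP3 are clustered, while the 4 of DDIT4 are spread over the window. EGLN1, ADM, KDM3A and P4HA1 each had 1 place, at -13, -101, -26 and -86 of their first windows. HIF1A, which was called, thus had a single place like these uncalled genes, and of the genes with several, DDIT4 was called and BNIP3 was not. The called genes NDRG1 and VEGFA had no window. Sequence outside the windows was not searched, so a gene without a match may still have an element elsewhere.

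**Figure D3:**
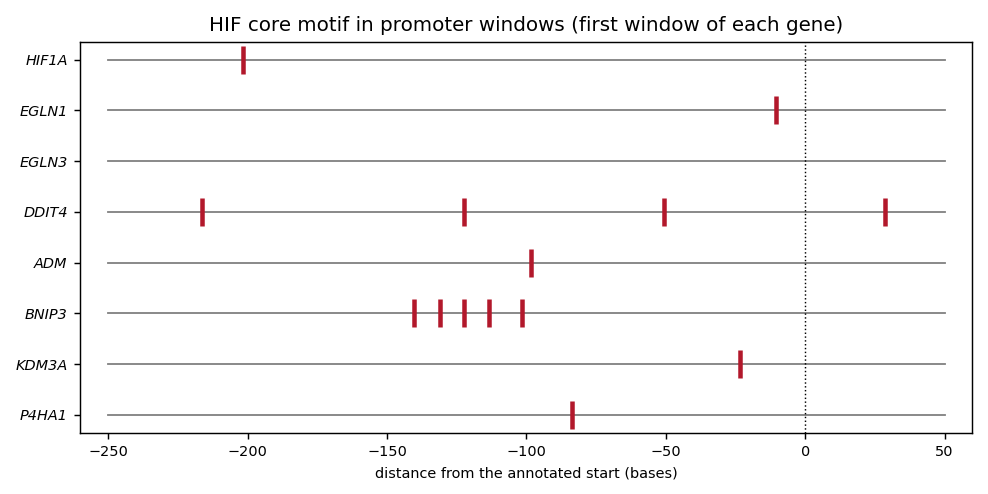
Places of the motif ACGTG or GCGTG on either strand (red ticks) in the first promoter window of the 8 genes that have one, by distance from the annotated start in bases (horizontal axis, dotted line at the start). DDIT4 has 4 places and BNIP3 has 5, EGLN3 has none, and each other gene has 1.

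Of 17 further genes of HIF and its control, 1 was lower (5.88%), 2 were higher (11.8%) and 14 were not called. Over all genes 6.38% were lower and 3.48% higher. The median change of the 17 genes was -0.046 (0.001 after quantile normalization and 0.011 after cyclic loess). All 3 called genes belong to the ligase that marks HIF-1α for degradation. VHL, which recognizes the hydroxylated prolines, read 6.41, 6.56 and 6.40 in the siFAH arrays, against 6.81, 6.67 and 6.85 in the control arrays. ELOB (elongin B) read 8.81, 8.91 and 8.81 in the siFAH arrays, against 8.53, 8.47 and 8.38 in the control arrays. ELOC (elongin C) read 6.64, 6.54 and 6.71 in the siFAH arrays, against 6.42, 6.34 and 6.35 in the control arrays. The groups were apart in all 3 genes, downward for VHL and upward for the elongins. VHL changed by -0.32 (standard error 0.08, adjusted p = 0.0307), ELOB by 0.38 (standard error 0.07, adjusted p = 0.0103) and ELOC by 0.26 (standard error 0.07, adjusted p = 0.0455). The call of ELOB held in each fit with 1 array left out, that of ELOC in none of them (adjusted p from 0.0536 without control replicate 1 to 0.159 without siFAH replicate 3), and that of VHL was lost without siFAH replicate 1 (0.0768), siFAH replicate 3 (0.11), control replicate 1 (0.0621) or control replicate 3 (0.0963). ELOC was also not called with each array centred on its median (0.0956). Over all alternatives the adjusted p of VHL ran from 0.0128 to 0.11, that of ELOC from 0.0184 to 0.159 and that of ELOB from 0.00253 to 0.0467.

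The other ligase subunits were not called: RBX1, the RING subunit, had 0.23 (adjusted p = 0.0837) and the scaffold CUL2 had -0.15 (adjusted p = 0.248). RBX1 was called, though, after quantile normalization or cyclic loess, with dim genes left out or with array weights. The other HIF subunits were not called either. ARNT, the partner of HIF-1α, had -0.08 with a 95% interval of -0.24 to 0.08, EPAS1 (HIF-2α) had 0.09 (-0.08 to 0.26), and HIF1AN, the asparaginyl hydroxylase of HIF-1α, had -0.05 (-0.20 to 0.10). HIF1A was thus the only one of the 5 HIF subunits measured here (HIF1A, EPAS1, HIF3A, ARNT and ARNT2) to be called. ARNT2 had a change of -0.25 (adjusted p = 0.0936, called with array weights, with dim genes left out or without control replicate 1), and the difference between it and HIF1A was not tested. EGLN2, whose probe sets carry several symbols, was not analysed here. Apart from HIF1A, these genes were picked by name once the fit was known.

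**Figure D4:**
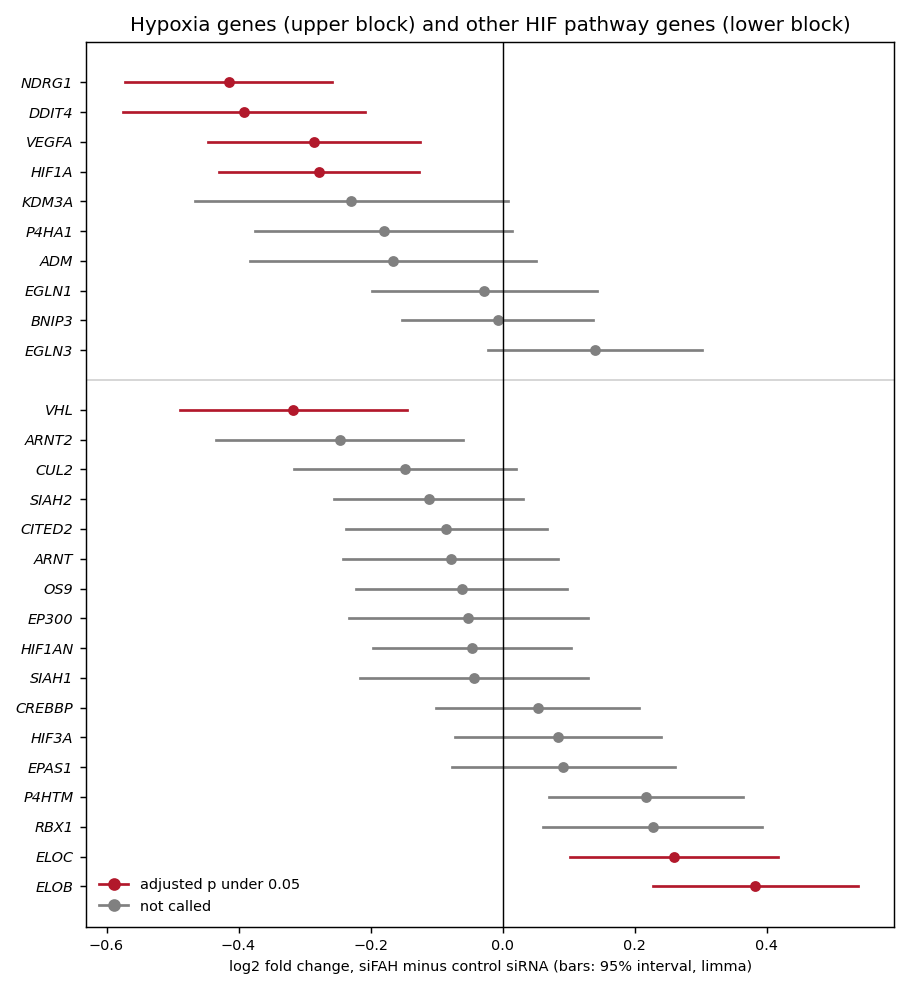
Change in log2 signal (horizontal axis, siFAH over control siRNA) and its 95% interval from limma for the 10 hypoxia genes (upper block) and 17 other genes of HIF and its control (lower block), red where the adjusted p is under 0.05. NDRG1, DDIT4, VEGFA and HIF1A are called lower in the upper block, and in the lower block VHL is called lower and ELOC and ELOB higher.

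VEGFA was next set beside the other ligands and receptors of its family and of adrenomedullin. Of 13 such genes 0 were lower, 2 were higher (15.4%, against 3.48% of all genes) and 11 were not called, with a median change of 0.05. VEGFC, the ligand of lymphatic vessel growth, read 7.25, 7.03 and 7.27 in the siFAH arrays, against 6.52, 6.65 and 6.59 in the control arrays. NRP1, a co-receptor of VEGF-A and of semaphorins, read 6.38, 6.43 and 6.31 in the siFAH arrays, against 6.01, 5.98 and 6.10 in the control arrays. Both genes were higher in every siFAH array than in any control array, whereas VEGFA was lower in every one. VEGFC changed by 0.60 (standard error 0.08, adjusted p = 0.00272, called in each fit with 1 array left out) and NRP1 by 0.34 (standard error 0.07, adjusted p = 0.0148, lost without siFAH replicate 2 at 0.0633 or control replicate 2 at 0.0659, in a range of 0.00243 to 0.0659). VEGFB had 0.06, PGF had 0.05, and the VEGF receptors FLT1, KDR and FLT4, all dimmer than the array medians, had -0.03, -0.06 and -0.01. None of them was called. For adrenomedullin, the receptor CALCRL, near the bottom of the scale at 2.12 to 2.39 in siFAH arrays and 2.39 to 2.49 in control arrays, had -0.17 (adjusted p = 0.203) and its partner RAMP2 had 0.14 (adjusted p = 0.473). The uncalled genes here were likewise picked once the fit was known.

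**Figure D5:**
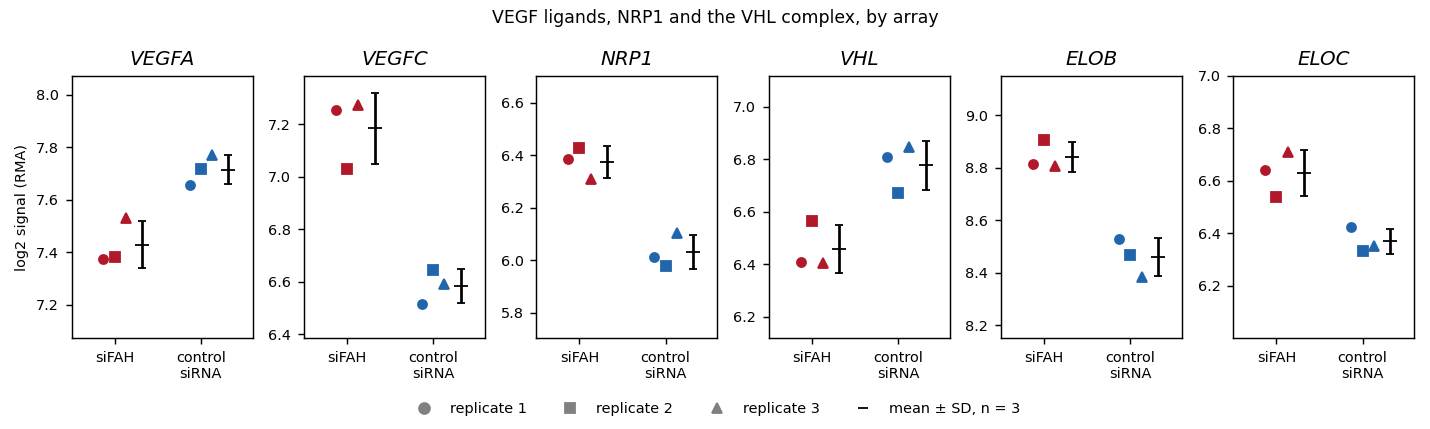
Log2 signal (vertical axis, 1 unit tall in every panel) of VEGFA, VEGFC, NRP1, VHL, ELOB and ELOC in the 3 siFAH arrays (red) and the 3 control siRNA arrays (blue), with the mean ± SD of each group in black. The siFAH arrays are below the control arrays for VEGFA and VHL and above them for VEGFC, NRP1, ELOB and ELOC.

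A second list held 34 other HIF-1 targets outside glycolysis, of which 32 were measured. Of those, 3 were called lower (9.38%), 1 was called higher (3.12%), and 28 did not pass. Their median change was -0.045, nearer to the 0.005 of all genes than the -0.20 of the 10 genes. VLDLR, a lipoprotein receptor, read 5.30, 5.18 and 5.15 in the siFAH arrays, against 5.49, 5.65 and 5.94 in the control arrays (-0.48, adjusted p = 0.0213). WSB1, an adaptor of a ubiquitin ligase, had -0.35 (adjusted p = 0.0327), and HILPDA, a lipid droplet protein named after its value was seen, had -0.31 (adjusted p = 0.0202). FAM162A, a mitochondrial protein, read 7.12, 7.50 and 7.37 in the siFAH arrays, against 7.00, 6.90 and 6.89 in the control arrays (0.40, adjusted p = 0.0274). The called targets thus lay on both sides, in shares near those of all genes. None of these 4 genes was called without siFAH replicate 2, siFAH replicate 3, control replicate 2 or control replicate 3, where their adjusted p lay between 0.0505 (VLDLR without control replicate 3) and 0.105 (WSB1 without siFAH replicate 2). BNIP3L, the paralog of BNIP3, read 8.11, 8.07 and 7.94 in the siFAH arrays, against 8.18, 8.30 and 8.59 in the control arrays (-0.32, adjusted p = 0.0757).

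DDIT4 and VEGFA are also known as targets of ATF4, a factor that cells induce when amino acids run short, and so is VLDLR. In a list of 20 ATF4 targets (VLDLR among them, and without DDIT4 and VEGFA), 14 genes were lower, 5 did not pass the test and 1 was higher (ATF5, 0.35, adjusted p = 0.0138, named after its value was seen). The lower genes made up 70.0% of that list, against 6.38% of all genes, and its median change was -0.58. That list too was chosen with earlier results of these data known, so its share and median are a description and not a test. The largest changes were those of ASNS, the asparagine synthetase (-0.91), the cystathionine lyase CTH (-0.87), and the amino acid transporters SLC7A5 (-0.87) and SLC7A11 (-0.81). ASNS read 7.86, 7.68 and 7.75 in the siFAH arrays, against 8.55, 8.68 and 8.78 in the control arrays. The changes of DDIT4 and VEGFA (-0.39 and -0.29) were thus smaller than the median of that list. The part of ATF4 in the values of DDIT4 and VEGFA was not tested.

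The enzymes around fumarate and the other dioxygenases that fumarate can inhibit were counted as well. Of 8 listed enzymes that make or use fumarate, 6 were measured, of which FAH was lower and 5 were not called. The other 2 were not analysed here, so the count does not cover them. SDHC and SDHD, counted among the 6, had 2 probe sets each, and the brighter was kept. Whether the kept probe set reads the gene itself or a similar sequence was not tested. SDHA, the subunit of succinate dehydrogenase that forms fumarate, read 8.42, 8.47 and 8.28 in the siFAH arrays, against 8.55, 8.67 and 8.68 in the control arrays (-0.24, adjusted p = 0.0705), and ADSL, of purine synthesis, had -0.21 (adjusted p = 0.0989), as SDHD had -0.20 (0.13, and -0.105 at 0.373 with its 2 probe sets averaged). TET, JmjC and related dioxygenases use 2-oxoglutarate, as the EGLN enzymes do. Of 22 of them 2 were lower (9.09%, against 6.38% of all genes), 0 were higher and 20 were not called (median -0.043). The histone demethylases KDM7A (-0.47, adjusted p = 0.0345) and KDM4A (-0.34, adjusted p = 0.0157) were the 2 called. KDM7A lost its call without siFAH replicate 2 (0.1), siFAH replicate 3 (0.124), control replicate 1 (0.063) or control replicate 3 (0.128), and KDM4A without siFAH replicate 2 (0.0547), siFAH replicate 3 (0.066), control replicate 2 (0.0602) or control replicate 3 (0.0526), in ranges of 0.0121 to 0.128 and 0.0046 to 0.066. KDM5C and KDM5A had -0.27 (adjusted p = 0.0512) and -0.24 (0.131). KDM3A, of the 10 genes, had a change of -0.23, close to that of KDM5A.

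The genes closest to HIF1A and to NDRG1 were found by the root mean square difference of log2 values, each gene centred on its own mean, over the 6 arrays and 18371 other genes. For HIF1A they were TNKS2, a poly-ADP-ribose polymerase, EIF2B2, a subunit of a translation initiation factor, and MTAP, which recycles methylthioadenosine, at differences of 0.0135, 0.0144 and 0.0154. Their changes were -0.28, -0.29 and -0.30. For NDRG1 they were PSMD11, a subunit of the proteasome, TMTC2 and GDAP2, at 0.018, 0.0204 and 0.0204, with changes of -0.44, -0.40 and -0.40. The distances are a description, since among so many genes some are close to any profile of 6 values.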

How the data were processed

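Total RNA of A375 cells was labeled and hybridized to 6 arrays, 1 per sample. The log2 signals are those the authors deposited, made by RMA (background correction, normalization between arrays, 1 summary per probe set) with global scaling named as the normalization and no version given in the sources used here. Of 28829 probe sets, 19291 carried 1 gene symbol in the platform annotation, 1735 carried several and 7803 were not named. The probe set with the highest mean was kept for each symbol, which left 18372 genes. Each of the 10 genes had 1 probe set. Genes were compared by a linear model with moderated errors (limma 3.58.1, R 4.3.3; 6.52 prior and 4 residual degrees of freedom), two-sided, with Benjamini-Hochberg adjustment over all genes. The methods of the study name SAM, which was not run here. Their limits were applied to limma's unadjusted p. The fit was tested on simulated data. Arrays have no read depth, and their number limits the precision.

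The members and lists were chosen with earlier results of these data known, so no list was tested as a set. Named were the 10 genes, FAH, the called genes of the lists of HIF control and of VEGF and adrenomedullin, the 4 largest changes of each other list, and the 3 nearest profiles of HIF1A and NDRG1. This gave 40 genes, of which 26 were called. Alternatives were 3 scalings, array weights, a trended and robust eBayes step, a minimum mean log2 signal of 5, averaging over probe sets, a replicate block, the methods' limits and each array left out. Promoter windows were read from a table made from RefSeq. Python 3.11.15 with matplotlib 3.10.9 made the figures.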

Additional observations from a re-analysis of the deposited data

How the results depend on the processing

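The changes of the 10 genes kept their sign under all alternatives except for EGLN1 and BNIP3, neither of which was called in any. EGLN1 was at 0.036 after quantile normalization and 0.05 after cyclic loess, and BNIP3 at 0.035, 0.074 and, with array weights, 0.004. With 1 array left out EGLN1 ran from -0.079 to 0.031 and BNIP3 from -0.04 to 0.014. The 4 lower genes became 3 after quantile normalization, 2 after cyclic loess and 1 with the replicate block, and were 1 to 4 with 1 array left out. Over the 17 genes of HIF control, the lower count of 1 became 2 with the filter on dim genes, 2 with array weights and 0 with the replicate block (0 to 1 with 1 array left out). The higher count of 2 became 3 after quantile normalization, 3 after cyclic loess and 3 with the dim filter, and 1 with centred arrays, 4 with array weights, 1 with the replicate block, 1 at the methods' limits and 1 with each array left out. Over the 32 other targets, the 3 lower became 5 with the dim filter, with trend and robust, with array weights and at the methods' limits, and 1 with the replicate block (0 to 5 with 1 array left out). Their 1 higher became 2 with the dim filter or with trend and robust and 0 with the replicate block (0 to 1 with 1 array left out). Over all genes, 1172 lower and 639 higher became 1678 and 416 with centred arrays, 893 and 695 after cyclic loess, 1743 and 1170 with array weights and 462 and 299 with the replicate block. With 1 array left out they ran from 390 to 1192 lower and from 267 to 653 higher, fits that rest on fewer samples. Where an alternative changed a count, the cause was not tested.

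The labels do not say whether samples with equal replicate numbers were handled together. The deviations of equal numbers correlated at -0.155, -0.0891 and -0.274, and those of unequal numbers at -0.0923 to 0.241. With 3 arrays in a group these values cannot show whether the samples were paired. With the replicate block NDRG1 had an adjusted p of 0.031, DDIT4 0.0528, VEGFA 0.0749 and HIF1A 0.0912. Calls also lost with it were those of NRP1 (0.0555), VHL (0.0862), ELOC (0.103), FAM162A (0.0624), WSB1 (0.0618), HILPDA (0.0656), KDM7A (0.0526), KDM4A (0.0575), TNKS2 (0.0946), EIF2B2 (0.0843) and MTAP (0.0792), and no other of the 40 genes named by rule lost its call. Of the 40 named genes' alternatives, 491 gave the same call and direction, 81 lost the call, 17 gained it and 9 turned the sign. The signals of EGLN3, under the array medians, leave little room above background.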

Other observations

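Paralogs of the hypoxia genes were also measured, and P4HB, a partner subunit of P4HA1 and not its paralog, was counted with them. Of these 12 genes 1 was lower (8.33%, against 6.38% of all genes), 0 were higher and 11 were not called, with a median change of 0.026. The lower one was NDRG3, of the same family as NDRG1 and known to be stabilized in low oxygen, which read 7.86, 7.70 and 7.69 in the siFAH arrays, against 8.16, 8.08 and 8.33 in the control arrays. Its change of -0.44 (standard error 0.08, limma adjusted p = 0.0117) was called under all 14 alternatives, with adjusted p from 0.00365 to 0.0498. NDRG4 had 0.18 (adjusted p = 0.158) and NDRG2, named after its value was seen, had 0.05 (adjusted p = 0.717). Among paralogs of KDM3A, KDM3B had -0.18 (adjusted p = 0.165). For P4HA1, the isoform P4HA2 had -0.06 (adjusted p = 0.738) and P4HB, the subunit they share, had 0.06 (adjusted p = 0.580), both named after their values were seen.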
